A study of Canis rufus and Canis latrans with 56 samples.

Results

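OAS2-high red wolves were 3 of the 13 red wolves in this blood study, set against the other 10, the OAS2-low wolves. The sides were chosen from the measurements themselves: a wolf was OAS2-high when the brightest of the 3 probes for OAS2 stood above a log2 threshold in the gap between 0.70 and 1.40, where no wolf lay, and OAS2-low when it stood below. The OAS2-high side held 12 of the 56 arrays and the OAS2-low side 40, and the remaining 4 arrays were those of 1 coyote, which was on neither side. RNA from whole blood kept in RNAlater was amplified, labelled with biotin and put on human Illumina bead arrays, 4 arrays for each animal. Red wolves (Canis rufus) are North American canids, and the study as a whole asked how captive and free-ranging animals differ in blood. Neither holding status nor sex is given for single animals in the labels used here, so each side may mix both, as well as ages and sampling conditions that are not given. Collection in the wild is noted for 1 of the OAS2-high wolves (111080), 2 of the OAS2-low wolves (11136 and 11310) and the coyote. The labels name no treatment, strain or allele for any animal.

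Type I interferons are secreted by cells that sense viral nucleic acid, and they act through a receptor, its kinases and transcription factors to switch on a large set of interferon-induced genes. OAS2 encodes an oligoadenylate synthetase of that set: with double-stranded RNA bound, it makes short 2′-5′ linked adenylate chains that act as a signal for the breakdown of RNA. In blood leukocytes OAS2 usually moves together with its relatives OAS1, OAS3 and OASL and with genes such as MX1, ISG15 and IFIT1.

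On the OAS2-high side the fitted OAS2 level was 2.99 for wolf 11206, 1.63 for wolf 11105 and 1.40 for wolf 111080. On the OAS2-low side wolf 11310 had 0.70, wolf 11270 had 0.61, wolf 10406 had 0.34, wolf 11148 had 0.32, wolf 11136 had 0.26 and wolf 10537 had 0.25. Lower still, wolf 11275 had 0.17, wolf 10632 had 0.15, and wolves 11274 and 11273 had 0.08 each. Wolf 111080 was thus just inside the threshold and wolf 11310 just outside it. The means were 2.01 ± 0.86 (SD, n = 3) on the OAS2-high side and 0.30 ± 0.21 (SD, n = 10) on the OAS2-low side. These values made the sides and are a description, with no test. Single arrays gave 1.23 to 3.20 in OAS2-high wolves and -0.19 to 0.91 in OAS2-low wolves, so 0 arrays of either side crossed the threshold.

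The other 2 OAS2 probes did not separate the sides. One ran from 0.10 to 0.30 in OAS2-high wolves and from -0.02 to 0.32 in OAS2-low wolves, and the other from -0.35 to -0.20 in OAS2-high wolves and from -0.31 to -0.13 in OAS2-low wolves. Both were at levels where background cannot be told from signal, as described below, and so was the brightest probe in the OAS2-low wolves. Which canid transcripts bind the human probes was not measured here.

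**Figure D1:**
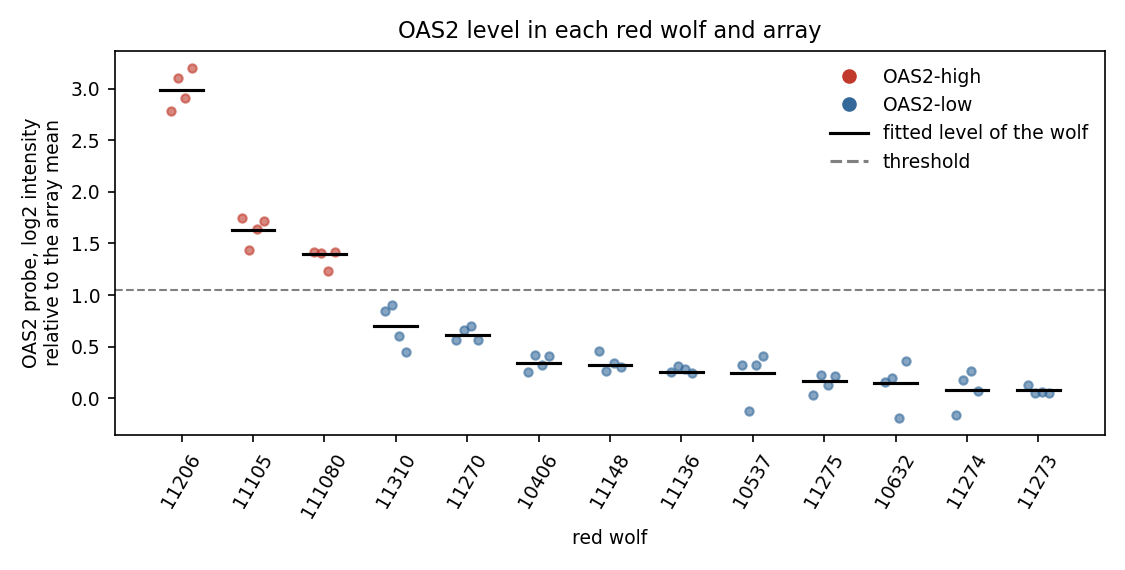
OAS2 level of each red wolf, as log2 intensity relative to the array mean, with wolves in order of their level. Points are the 4 arrays of a wolf, the black bar is the fitted level and the dashed line the threshold, in the gap between 0.70 and 1.40. The 12 arrays of OAS2-high wolves lie between 1.23 and 3.20, above all 40 arrays of OAS2-low wolves.

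Each of the 7 slides held arrays of both sides. Wolves 11206 and 11105 shared the same 4 slides with the OAS2-low wolf 11274, while wolf 111080 shared 1 of those slides. The arrays of OAS2-high wolves spread more widely. Their SD over probes, as the mean of an animal's 4 arrays, was 0.546 to 0.565 (median 0.555), against 0.365 to 0.538 (median 0.484) in OAS2-low wolves, with no overlap. The narrowest were those of wolf 11136. Within each slide, too, the mean SD was larger for the OAS2-high arrays. To mark levels where background could account for the signal, CYP1A2 was used, the gene with the highest signal of 42 measured ones from liver and muscle. Its mean level of 1.26 was exceeded by 550 probes (2.26%) and 426 named genes, and that of the next brightest, HPX, 0.40, by 2074 probes (8.52%).

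The wider spread went with higher levels of bright probes. Of the 426 genes above 1.26, 406 (95.3%) had a higher mean in OAS2-high wolves, with a median difference of 0.35. The level of 1.26 was applied to the mean over all wolves, so 44 of the 426 passed it without an OAS2-low mean above it, and these 44 had to be higher in OAS2-high wolves. The other 382 had a median difference of 0.26. Of all 16120 named genes, each taken by its brightest probe, 38.7% had a higher mean and the median difference was -0.02. By level, the median difference was -0.04 for probes below 0, 0.18 for those between 1 and 2, and 0.40 for the 44 above 4. With the SD of all arrays made equal, these medians were -0.01, -0.01 and -0.40, and with quantile normalisation they were -0.01, -0.09 and -0.01. The part of array spread in each result was not tested, and differences of bright genes are therefore given below with their value at equal SD where a call rests on them.

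**Figure D2:**
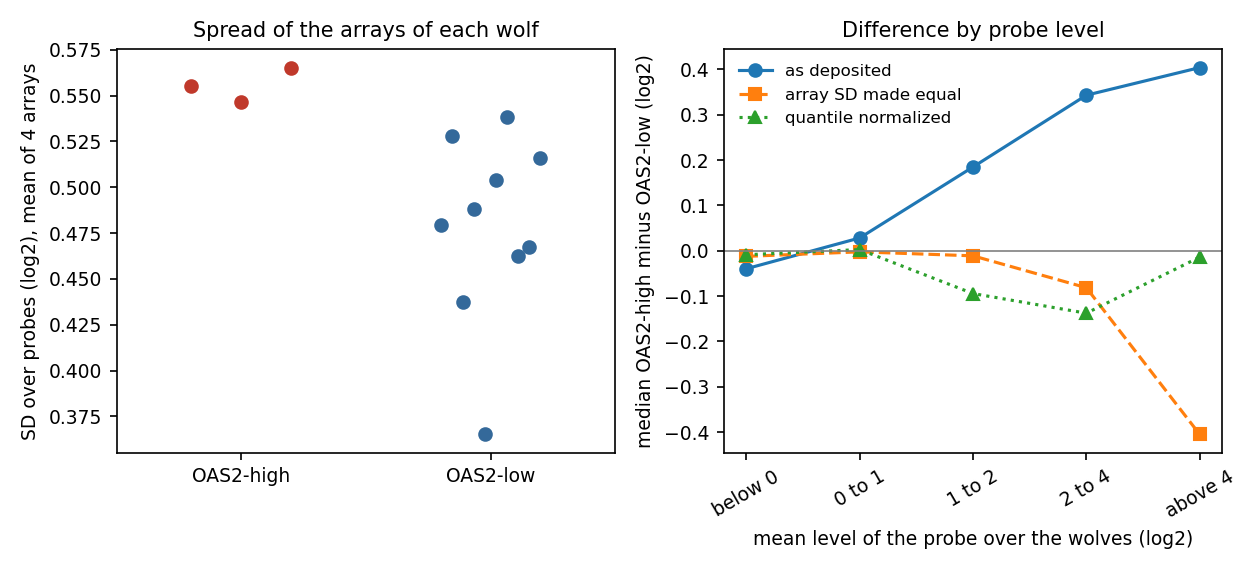
Left, SD over probes of each wolf's arrays (mean of 4) on the OAS2-high and OAS2-low sides. Right, median difference, OAS2-high minus OAS2-low, of probes grouped by mean level, under 3 scalings. The OAS2-high wolves lie at 0.546 to 0.565, above all OAS2-low wolves, and the median difference rises with level as deposited and does not at equal SD.

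Interferon-induced genes came first, as the partners of OAS2. Of 111 listed genes, 98 were measured, and 0 passed the limma test at an adjusted p under 0.05 over all 24351 probes other than OAS2, with a smallest adjusted p of 0.342. The test called 10 of those probes (0.0411%), so a count of 0 among 98 genes is what the background share gives. At an unadjusted p under 0.05, 1 of the 98 was higher (5.48% of all named genes were) and 5 were lower (6.64% of all named genes). In 0 of the 98 did all 3 OAS2-high wolves stand above all 10 OAS2-low wolves, and in 0 below (0.471% and 1.12% of all named genes did). The p-values set each difference against the spread between these 13 animals. That spread was not a probe's own alone, because limma drew it towards that of probes of like intensity. Without the trend on intensity 0 probes passed.

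The median difference of the 98 genes was -0.03, beside -0.02 over all named genes, and 35 had a higher mean in OAS2-high wolves. The differences ran from -0.14 to 0.82. The mean level of the list was -0.026 to -0.003 in OAS2-high wolves and -0.017 to 0.006 in OAS2-low wolves, so the ranges overlapped. The limit on these statements is signal: 72 of the 98 had a mean level below 0, 2 lay above 1.26 (OAS1 and SP100), and 6 above the HPX level. The 95% interval of the difference had an upper end under 0.5 for 96 of the 98, beside 95% of all named genes, but for a probe at background that interval bounds the probe signal and not the transcript.

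OAS1, the small synthetase of the family, was the bright relative of OAS2. It stood at 2.72, 2.94 and 2.42 in OAS2-high wolves 11206, 11105 and 111080, and at 1.66 (lowest), 2.43 (median) and 2.88 (highest) in OAS2-low wolves. The wolf with the highest OAS2 level, 11206, did not have the highest OAS1 level, and the sides overlapped. The difference was 0.33 (SE 0.31, 95% interval -0.30 to 0.96, limma adjusted p = 0.732), and it was -0.03 at equal array SD. Within slides it was above 0 in 5 of 7, between -0.25 and 0.67.

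OASL, a family member without synthetase activity in humans that enhances RIG-I signalling, had 0.62, 0.35 and 0.55 in the same 3 OAS2-high wolves. In OAS2-low wolves it ran from 0.26 over a median of 0.45 to 0.69, so wolf 11105 was below the OAS2-low median. The difference was 0.07 (SE 0.09, limma adjusted p = 0.832). OAS3, the large synthetase, had -0.21, -0.17 and -0.33 in OAS2-high wolves and -0.32, -0.21 and -0.06 (lowest, median and highest) in OAS2-low wolves. These are background levels, and the difference of -0.04 (limma adjusted p = 0.800) says little about the transcript.

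SP100, the nuclear body protein that interferon induces and that silences viral genomes, had the largest difference of the 98. It stood at 3.99, 4.03 and 4.07 in OAS2-high wolves, against 2.62 (lowest), 3.09 (median) and 4.11 (highest) in OAS2-low wolves. The 3 OAS2-high wolves lay close together near the top of the OAS2-low range, and they overlapped it. The difference was 0.82, a 1.76-fold higher intensity (SE 0.40, 95% interval 0.01 to 1.63, limma adjusted p = 0.414), and it was 0.26 at equal array SD. It passed in 1 alternative, a single limma fit of all wolf arrays with the animal as a random block (adjusted p = 0.00106). That fit took 1 correlation of 0.066 for all probes. A wolf's 4 technical arrays thus counted almost as independent values, and its p-value overstates the evidence from 13 wolves. SP100 was also the 1 gene of the list with a higher value at an unadjusted p under 0.05.

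The antiviral effectors and GTPases stayed close together on the 2 sides; 0 of their 18 measured members passed. Members below were picked after their values were seen, as the best known of the list or as those above the HPX level. IFITM3, which blocks the entry of enveloped viruses, had 0.68, 0.58 and 0.70 in OAS2-high wolves and 0.29, 0.57 and 0.73 (lowest, median and highest) in OAS2-low wolves, with a difference of 0.10 (limma adjusted p = 0.769) that was 0.01 at equal array SD. MX1, a dynamin-like GTPase that traps viral nucleocapsids, averaged -0.05 ± 0.03 in OAS2-high wolves (SD, n = 3) and -0.11 ± 0.08 in OAS2-low wolves (SD, n = 10). MX2, its relative, averaged -0.26 in OAS2-high and -0.18 in OAS2-low wolves. IFIT1, which binds viral RNA caps, averaged -0.18 in OAS2-high and -0.11 in OAS2-low wolves, and RSAD2 (viperin), which makes a chain-terminating nucleotide, -0.32 in OAS2-high and -0.22 in OAS2-low wolves. IFI44 averaged -0.33 in OAS2-high and -0.27 in OAS2-low wolves. All of these but IFITM3 lay below 0, where no transcript level can be read.

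ISG15, the ubiquitin-like protein attached to other proteins after interferon, had 0.15, 0.24 and 0.22 in OAS2-high wolves and -0.01, 0.21 and 0.33 (lowest, median and highest) in OAS2-low wolves. The difference was 0.03 (SE 0.07, limma adjusted p = 0.920), and the sides overlapped throughout. DTX3L, a ubiquitin ligase that works with PARP9, averaged 0.61 ± 0.14 in OAS2-high wolves (SD, n = 3) and 0.69 ± 0.19 in OAS2-low wolves (SD, n = 10). Among 14 measured receptors, kinases and transcription factors of the pathway, IRF9, the DNA-binding part of the ISGF3 complex, averaged 0.43 ± 0.18 in OAS2-high wolves and 0.39 ± 0.09 in OAS2-low wolves. IRF9 had a limma adjusted p of 0.894, and 0 of the 14 passed.

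The 5 genes lower at an unadjusted p under 0.05 were named after their values were seen. They were TLR7, an endosomal sensor of single-stranded RNA (difference -0.14), TRIM21, an antibody-binding ubiquitin ligase (-0.11), GBP5, a GTPase of the inflammasome (-0.11), USP18, which removes ISG15 from proteins (-0.11), and XAF1, a promoter of cell death (-0.10). Their limma adjusted p-values ran from 0.342 to 0.414. In both OAS2-high and OAS2-low wolves their mean levels lay below 0, between -0.37 and -0.03, and the sides overlapped for each. At equal array SD 0 of the 98 genes had an unadjusted p under 0.05 in either direction.

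**Figure D3:**
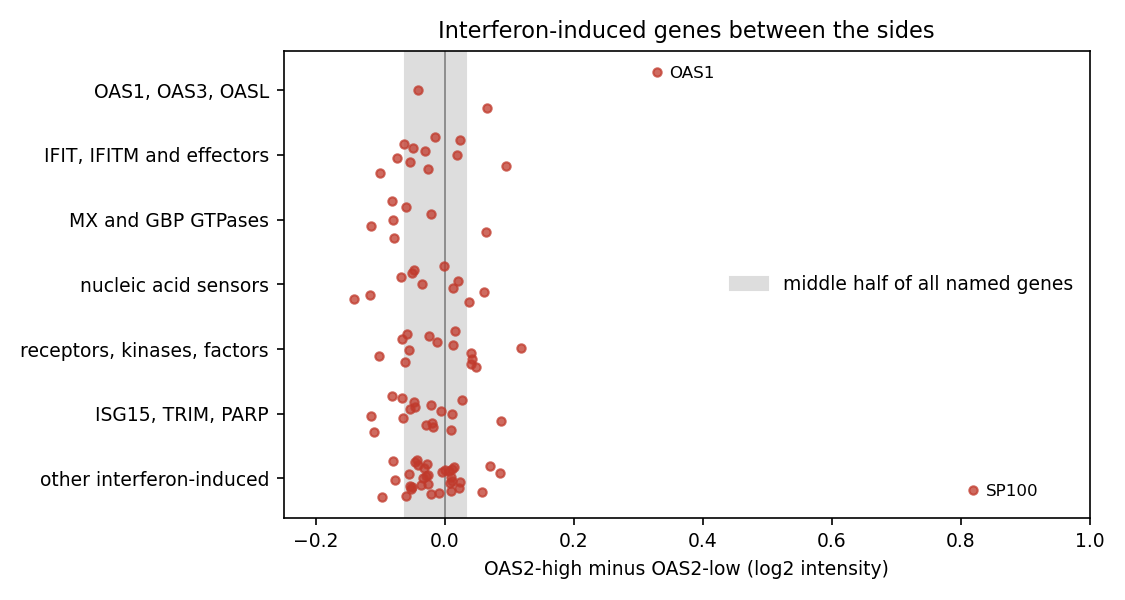
Difference in log2 intensity, OAS2-high minus OAS2-low, of the 98 measured interferon-induced genes, in 7 groups by role. Each point is a gene by its brightest probe, and the grey band spans the lower to the upper quartile of all named genes, -0.06 to 0.03. OAS1 (0.33) and SP100 (0.82) lie outside the cloud and 0 of the 98 passed the test.

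Interferon genes themselves and genes that present antigen gave no call. Of 21 measured interferon genes 0 passed, and IFNA1, an interferon alpha, had the smallest p (difference -0.14, limma adjusted p = 0.279) at levels below 0. Of 18 measured genes of class I antigen processing 0 passed. PDIA3, a chaperone of the class I loading complex, had 0.90, 0.76 and 1.52 in OAS2-high wolves and 0.25, 0.64 and 1.35 (lowest, median and highest) in OAS2-low wolves, a difference of 0.38 (limma adjusted p = 0.372) that was 0.24 at equal array SD. PSMB10, an interferon-inducible proteasome subunit, differed by 0.31 (limma adjusted p = 0.458), and NLRC5, the activator of class I genes, by -0.16 (limma adjusted p = 0.216). Of 11 class II genes 0 passed, and HLA-DRB1 had the smallest p, with a difference of -0.14 (limma adjusted p = 0.206).

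Outside the interferon system 8 named genes were higher in OAS2-high wolves (0.0496% of 16120) and 1 was lower (0.0062%). The higher genes were MARCO, RNF145, ALDOA, PLOD3, YWHAZ, GABARAP, FCER1G and VCPIP1, and the lower gene was ALPL. Their intensity ratios ran from 1.28-fold to 2.36-fold for the higher genes, and ALPL had 0.798-fold. All 9 had a mean level over the wolves below 1.26, and RNF145, ALDOA, PLOD3, YWHAZ and GABARAP exceeded the HPX level on both sides. MARCO exceeded it through the OAS2-high wolves, with a mean of 0.13 in OAS2-low wolves. With array SD made equal, 3 of the 9 passed: MARCO, FCER1G and VCPIP1. Without a slide term 1 of the 9 passed, MARCO, and without an intensity trend in limma 0 passed, where 1156 probes were higher and 1603 lower at an unadjusted p under 0.05.

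MARCO, a scavenger receptor of macrophages that takes up bacteria and particles, had the largest difference. Wolf 11206 had 0.39, wolf 11105 had 1.37 and wolf 111080 had 2.34, against -0.04 (lowest), 0.09 (median) and 0.52 (highest, wolf 11270) in OAS2-low wolves. Wolves 11105 and 111080 were above every OAS2-low wolf, and wolf 11206, with the highest OAS2 level, was below wolf 11270. The means were 1.37 ± 0.97 in OAS2-high wolves (SD, n = 3) and 0.13 ± 0.16 in OAS2-low wolves (SD, n = 10), a difference of 1.24 or 2.36-fold (SE 0.19, limma adjusted p = 0.0104). It was 1.08 at equal array SD (adjusted p = 0.0267) and 0.56 to 2.47 within slides. Without wolf 111080 it was 0.75 and did not pass (limma adjusted p = 0.123). Set against the OAS2 level as a number it did not pass either (limma adjusted p = 0.119).

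FCER1G, the gamma chain of antibody receptors through which myeloid cells signal, had 0.81, 0.59 and 0.82 in OAS2-high wolves. In OAS2-low wolves it ran from -0.19 over a median of 0.12 to 0.51, so the sides did not overlap. The difference was 0.60 or 1.52-fold (SE 0.10, limma adjusted p = 0.0104), and 0.53 at equal array SD (adjusted p = 0.0267). The mean FCER1G level over the wolves, 0.28, was under the HPX level. It was 0.74 in OAS2-high wolves and 0.14 in OAS2-low wolves. VCPIP1, a deubiquitinase that acts in Golgi reassembly, had 0.24, 0.07 and 0.18 in OAS2-high wolves and -0.34, -0.16 and -0.06 (lowest, median and highest) in OAS2-low wolves. Its sides did not overlap either, and the difference was 0.36 or 1.28-fold (SE 0.06, limma adjusted p = 0.0104), with 0.36 at equal array SD. The VCPIP1 levels were among those of background genes.

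ALDOA, aldolase A of glycolysis, had 1.43, 1.42 and 1.46 in OAS2-high wolves, against 0.05 (lowest), 0.46 (median) and 1.26 (highest) in OAS2-low wolves. The 3 OAS2-high wolves were nearly equal and above every OAS2-low wolf. The difference was 0.94 or 1.91-fold (SE 0.16, limma adjusted p = 0.0192), and at equal array SD 0.78 (adjusted p = 0.156). The other 3 ALDOA probes lay near 0 and were not called. GABARAP, which joins autophagosome membranes, had 1.40, 1.10 and 1.20 in OAS2-high wolves and 0.15, 0.49 and 0.97 (lowest, median and highest) in OAS2-low wolves. It did not overlap, and the difference was 0.72 or 1.65-fold (SE 0.13, limma adjusted p = 0.0192), with 0.58 at equal array SD (adjusted p = 0.156).

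RNF145, a ubiquitin ligase of the endoplasmic reticulum that takes part in sterol control, had 1.56, 2.05 and 1.47 in OAS2-high wolves. In OAS2-low wolves it ran from 0.33 over a median of 0.56 to 1.47, and wolf 11270, at that upper end, overlapped wolf 111080. The difference was 0.98 or 1.97-fold (SE 0.19, limma adjusted p = 0.0384). PLOD3, a collagen-modifying lysyl hydroxylase, had 1.51, 0.90 and 1.57 in OAS2-high wolves and -0.11, 0.37 and 0.97 (lowest, median and highest) in OAS2-low wolves. Wolf 11105 fell below 2 of the OAS2-low wolves, and the difference was 0.91 or 1.89-fold (SE 0.18, limma adjusted p = 0.0443). YWHAZ, a 14-3-3 adaptor protein often used as a reference gene, had 1.71, 1.19 and 1.16 in OAS2-high wolves and 0.11, 0.44 and 1.23 (lowest, median and highest) in OAS2-low wolves. Wolf 11310 overlapped, and the difference was 0.83 or 1.78-fold (SE 0.16, limma adjusted p = 0.0467). At equal array SD these 3 differences were 0.77 for RNF145, 0.78 for PLOD3 and 0.68 for YWHAZ, with adjusted p-values of 0.417, 0.307 and 0.307. The other YWHAZ probe lay near 0 and was not called (difference 0.09, limma adjusted p = 0.543).

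ALPL, the alkaline phosphatase found in neutrophils, had -0.51, -0.45 and -0.46 in OAS2-high wolves, against -0.36 (lowest), -0.11 (median) and 0.02 (highest) in OAS2-low wolves. The sides did not overlap, and the difference was -0.33 (SE 0.06, limma adjusted p = 0.0198). All these levels lie in the range of background genes, and at equal array SD the difference was -0.28 (adjusted p = 0.156). The tenth called probe was a dim probe of FKBP1A, the target of the drug tacrolimus, with 0.60 ± 0.03 in OAS2-high wolves (SD, n = 3) and 0.07 ± 0.22 in OAS2-low wolves (SD, n = 10). The bright FKBP1A probe had 2.55 ± 0.44 in OAS2-high and 1.44 ± 0.46 in OAS2-low wolves, and did not pass (difference 1.11, limma adjusted p = 0.0905).

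**Figure D4:**
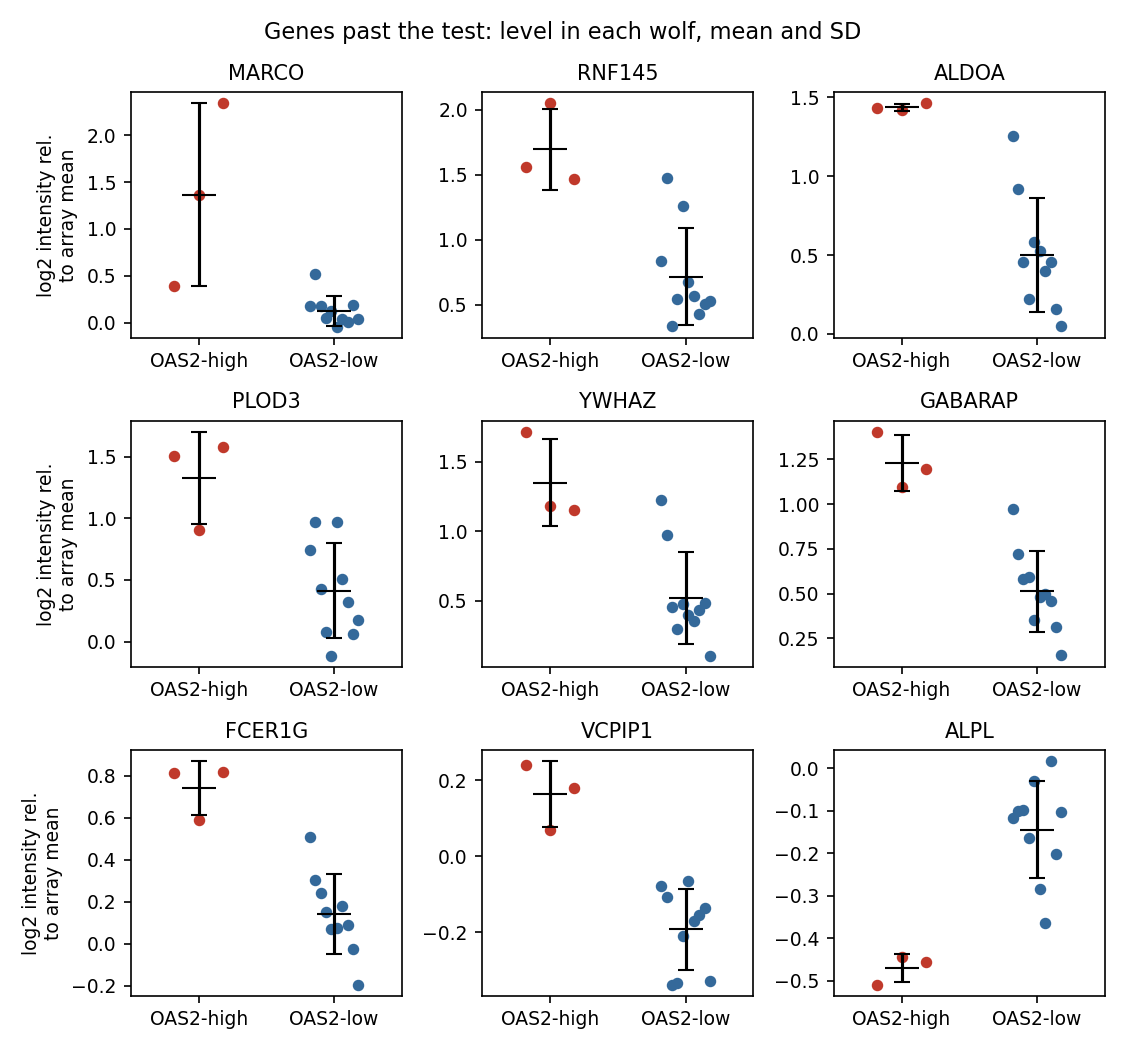
Level of the 9 named genes that passed the test in each wolf, as log2 intensity relative to the array mean, with OAS2-high wolves left of OAS2-low wolves and black bars for mean and SD (n = 3 and n = 10). The sides do not overlap for ALDOA, GABARAP, FCER1G, VCPIP1 and ALPL, and wolf 11270 reaches into the OAS2-high range for MARCO, RNF145 and PLOD3.

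The difference was above 0 for all 8 higher genes and below 0 for ALPL within each of the 7 slides. The within-slide differences ran from 0.65 to 1.73 for ALDOA, from 0.37 to 0.87 for FCER1G, from 0.19 to 0.51 for VCPIP1 and from -0.82 to -0.17 for ALPL. These values come from single arrays of 1 to 3 OAS2-high wolves a slide and carry no test. The median of the 98 interferon-induced genes lay between -0.03 and 0.00 within slides, and that of genes above 1.26 between 0.175 and 0.521. The genes above 1.26 include the 44 that passed that level without an OAS2-low mean above it.

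**Figure D5:**
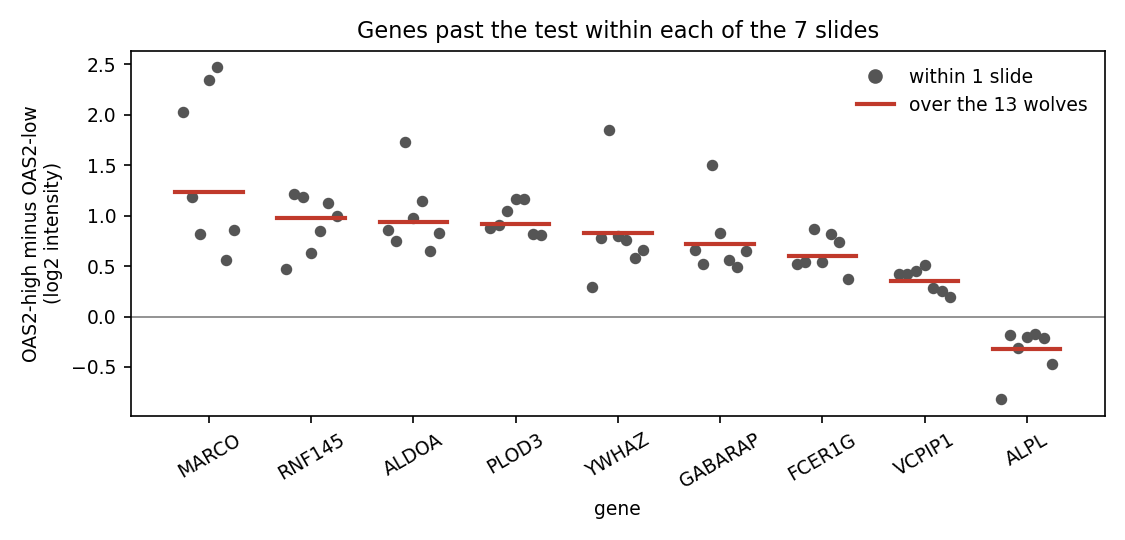
Difference, OAS2-high minus OAS2-low, in log2 intensity of the 9 genes within each of the 7 slides (grey points) and over the 13 wolves (red bars). The 8 higher genes lie above 0 on every slide and ALPL below 0 on every slide. The genes were picked for their difference in these same arrays.

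The number of calls depended on single wolves. It was 0 in limma without wolf 111080 (812 higher and 1556 lower at an unadjusted p under 0.05), 1 (MARCO) without wolf 11206 and 25 without wolf 11105, all OAS2-high. It was 324 without wolf 11310 and 350 without wolf 11270, the 2 OAS2-low wolves with the highest OAS2 levels, and 6 to 9 without each of the other 8. In 0 of these 13 fits was an interferon-induced gene called. At equal array SD the counts without 1 wolf ran from 0 to 48, with the 48 reached without wolf 11270.

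The sides separated without passing the test in a small part of the bright genes, and overlapped in the others. In 22 of the 426 genes above 1.26 all OAS2-high wolves were above all OAS2-low wolves, and in 0 below. For 3 of the 22, WTAP among them, the OAS2-low mean was not above 1.26, so the OAS2-high wolves brought them over that level. Over all named genes the share above was 0.471% and the share below 1.12%. Array spread was larger on the same side, and its part in these differences was not tested. WTAP, a subunit of the RNA methylation complex, had 2.11, 1.85 and 2.22 in OAS2-high wolves and 0.54, 0.86 and 1.71 (lowest, median and highest) in OAS2-low wolves. Its difference was 1.02 (SE 0.22, limma adjusted p = 0.0676), and 0.76 at equal array SD. Others, named after their values were seen, were RHOG, a small GTPase of phagocytosis (difference 1.26), QPCT, which cyclises N-terminal glutamine (1.18), GGH, which removes glutamates from folates (1.15), HNRNPC, an RNA-binding protein (0.99), FGL2, a prothrombinase of macrophages (0.98), and PIAS4, a SUMO ligase (0.64). Their limma adjusted p-values ran from 0.0935 for QPCT to 0.385 for PIAS4. At equal array SD the differences were 0.77 for RHOG, 0.85 for QPCT, 0.22 for GGH, 0.38 for HNRNPC, 0.35 for FGL2 and 0.26 for PIAS4. DPF2, a chromatin reader, was 2.08-fold as bright in OAS2-high as in OAS2-low wolves (limma adjusted p = 0.0905), with overlap. In the other direction, the genes above 1.26 with the smallest p were SDE2, PITHD1, BNIP3L, MRPS31, BCL2L1, DCUN1D1, FOS, MEMO1 and H3-3A. Their differences were -0.34 to -0.12, with limma adjusted p-values of 0.791 to 0.923, and the sides overlapped for each. At equal array SD these differences were larger, among them -1.02 for H3-3A, -0.80 for MRPS31 and -0.78 for BNIP3L, and 0 of the 9 passed.

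Markers of blood cells gave FCER1G and ALPL as their only calls at this threshold. Of 25 measured neutrophil genes 0 passed as higher and 1, ALPL, as lower, with a median difference of -0.02. CDA, cytidine deaminase, the bright neutrophil gene, had 5.68, 5.61 and 6.14 in OAS2-high wolves and 3.32, 4.55 and 5.85 (lowest, median and highest) in OAS2-low wolves. The difference was 1.28 (SE 0.48, limma adjusted p = 0.268), and 0.43 at equal array SD. CXCR1, a chemokine receptor, differed by -0.15 at background level. Of 14 monocyte genes 1, FCER1G, passed, with a median of -0.02 over the list. TYROBP, the adaptor that pairs with myeloid receptors, had 0.84, 0.89 and 0.49 in OAS2-high wolves and 0.41, 0.48 and 0.76 (lowest, median and highest) in OAS2-low wolves, a difference of 0.23 (limma adjusted p = 0.351) that was 0.15 at equal array SD. CD68, a lysosomal protein of macrophages, differed by -0.12 at background level. Fewer cells of a type and less RNA per cell cannot be told apart in whole blood.

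Lymphoid lists gave 0 calls: 0 of 20 T cell genes, 0 of 19 NK and cytotoxic genes and 0 of 17 genes from B and plasma cells passed, with median differences of -0.05, -0.03 and -0.03. MS4A1, which encodes CD20, had -0.05, -0.13 and -0.08 in OAS2-high wolves and -0.05, 0.02 and 0.15 (lowest, median and highest) in OAS2-low wolves, without overlap but with a gap under the rounding of these values (limma adjusted p = 0.406). Of 9 dendritic genes 0 passed, and CLEC4C, the plasmacytoid marker, differed by -0.15 (limma adjusted p = 0.305). Of 16 platelet genes 0 passed, but all OAS2-high wolves stood below every OAS2-low wolf for TUBB1, a platelet tubulin (difference -0.19, limma adjusted p = 0.0935). For ITGA2B, a fibrinogen receptor chain, they stood above every one (difference 0.18, limma adjusted p = 0.171). Both genes lay at background, with means over the wolves of -0.16 for TUBB1 and -0.04 for ITGA2B. Of all named genes, 1.12% had every OAS2-high wolf below and 0.471% above every OAS2-low wolf. Of 9 eosinophil and basophil genes 0 passed. Most of these markers lay at background: none of the T cell, NK, B cell, dendritic and monocyte genes exceeded 1.26.

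Red cell RNA gave 0 calls among 23 measured genes, with a median difference of 0.01 and 0 genes at an unadjusted p under 0.05. HBD, the bright globin probe that marks these samples as blood, averaged 6.18 ± 0.51 in OAS2-high wolves (SD, n = 3) and 6.22 ± 0.55 in OAS2-low wolves (SD, n = 10). The HBD difference was -0.04 as deposited and -1.02 at equal array SD (limma adjusted p = 0.826). HBA1, an alpha globin, averaged 0.70 ± 0.16 in OAS2-high wolves (SD, n = 3) and 0.52 ± 0.21 in OAS2-low wolves (SD, n = 10). BNIP3L, which drives the clearance of mitochondria in maturing red cells, had 2.24, 4.05 and 2.54 in OAS2-high wolves and 1.95, 3.38 and 4.33 (lowest, median and highest) in OAS2-low wolves. Wolf 11105 was the highest of the OAS2-high wolves, below OAS2-low wolves 11274 and 10406, and the difference was -0.34 (limma adjusted p = 0.832), and -0.78 at equal array SD.

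Stress and activation genes gave 0 calls, but some members had large differences. Of those named here, SOD2, KLF9 and KLF2 had a mean level over the wolves under 1.26. KLF6 exceeded it only through the OAS2-high wolves, with a mean of 1.08 in OAS2-low wolves. SOD2, the mitochondrial superoxide dismutase that inflammation induces, had 1.15, 1.07 and 1.03 in OAS2-high wolves and 0.29, 0.37 and 0.98 (lowest, median and highest) in OAS2-low wolves. It did not overlap, and the difference was 0.59 (SE 0.13, limma adjusted p = 0.0676), with 0.47 at equal array SD (adjusted p = 0.484). KLF9, a factor that glucocorticoids induce, had 2.42, 1.20 and 1.60 in OAS2-high wolves and 0.39, 0.64 and 1.48 (lowest, median and highest) in OAS2-low wolves. Its difference was 0.95 (SE 0.21, limma adjusted p = 0.0676), with 0.75 at equal array SD. CEBPB, a myeloid factor, differed by 1.15 (limma adjusted p = 0.335), and by 0.28 at equal array SD. Of the immediate early genes, KLF2 differed by 0.76 (limma adjusted p = 0.165) and KLF6 by 0.84 (limma adjusted p = 0.168). FOS had 1.04, 0.54 and 2.13 in OAS2-high wolves and 0.20, 0.81 and 4.68 (lowest, median and highest) in OAS2-low wolves, so wolf 11310 was far above the rest.

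In these lists 0 of 21 inflammation, 0 of 19 immediate early, 0 of 16 glucocorticoid, 0 of 19 heat shock and 0 of 25 proliferation genes passed. At an unadjusted p under 0.05, 5 of the 25 proliferation genes were lower and 0 higher, 3 of the 19 immediate early genes and 3 of the 16 glucocorticoid genes were higher, and 0 and 1 of them lower. Over all named genes 5.48% were higher and 6.64% lower at that p-value. Of the 25 proliferation genes 0 exceeded the HPX level and 18 had a mean below 0, so their count is one of background probes. Over all probes, 1088 were higher and 1802 lower as deposited at an unadjusted limma p under 0.05. At equal array SD 744 were higher and 521 lower. The other antigen, interferon ligand, blood cell and stress lists without a call had at most 1 higher and 2 lower genes each. MCM5, a replication helicase subunit, had the smallest p of the proliferation genes (difference -0.16, limma adjusted p = 0.172) at background level. Of 11 housekeeping genes 1, YWHAZ, passed, with a median difference of 0.19. At an unadjusted limma p under 0.05, 4 of the 11 were higher and 0 lower, beside 5.48% and 6.64% of all named genes. GAPDH, a glycolytic enzyme, had 5.21, 5.32 and 5.72 in OAS2-high wolves and 2.99, 4.14 and 5.31 (lowest, median and highest) in OAS2-low wolves. The GAPDH difference was 1.18 (limma adjusted p = 0.294), and 0.36 at equal array SD. HPRT1, of purine salvage, differed by 0.35 (limma adjusted p = 0.143).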

How the data were processed

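Whole blood RNA of 13 red wolves and 1 coyote was measured on 56 human bead arrays, 4 per animal. The submitters' processing notes name BeadStudio 1.5.0.34. What was deposited is log2 intensity, centred by the authors on the array median per the labels' design text, though in the file the mean of each array is 0. Background subtraction, detection p-values and the match to canid transcripts are not given in the sources used here. Probes were named from the platform annotation: 18339 of 24354 had 1 symbol, 0 several and 6015 none. No canid sequence or coordinate was used.

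Tests used limma 3.58.1 in R 4.3.3. A first fit of animal and slide (slide effects summing to zero) over all arrays gave 1 value per animal. A second fit compared the 3 OAS2-high with the 10 OAS2-low wolves, using eBayes with a trend on intensity, and p-values were adjusted by Benjamini-Hochberg over 24351 probes, with calls at 0.05. The 3 OAS2 probes, the brightest of which chose the sides, were left out of the adjustment and of every count. The coyote was left out of the second fit. The number of wolves, 3 OAS2-high and 10 OAS2-low, limits the precision, and an animal's 4 arrays are technical. Replicate numbers were given in accession order. The scripts were tested on simulated data.

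The members and lists were chosen with earlier results of these data known. Named were the OAS genes and those interferon-induced genes that passed, did not overlap or lay above the background bound; of all genes that passed, up to 10 per direction by difference, filled with the smallest p above the bound; and of each other list, up to 3 by smallest p. Liver and muscle lists served for the bound, and 0 of their 42 measured genes passed. Alternatives were slide handling, scaling between arrays, a filter on dim probes, the probes of a gene, the trend, OAS2 as a number and leaving out each wolf.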

Additional observations from a re-analysis of the deposited data

Results flagged for a closer look

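Of 107 groups of values examined for a stray animal, 5 had 1 OAS2-low wolf far from the other 9, and chance gives about 1 in 20. The gap to the nearest wolf as a share of the group's range was 0.596 for MARCO, where wolf 11270 stood at 0.52 and the next at 0.19. It was 0.525 for FOS, where wolf 11310 had 4.68 and the next 2.33. KLF4 had a share of 0.490, also from wolf 11310, at 0.43 against 0.14. ITGA2B (0.4664) and MCM3 (0.485) had a low end set by wolf 10632, at -0.26 against -0.13 and at -0.48 against -0.34.

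The coyote, which was on neither side and entered no comparison, stood above every OAS2-low wolf for 5 of the 9 genes that passed. Its levels were 1.66 for ALDOA, 1.51 for PLOD3, 1.64 for YWHAZ, 1.40 for GABARAP and 2.03 for FCER1G, while its OAS2 level was 0.48. It is 1 animal, and no test was made.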

How the results depend on the processing

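The count of probes called was 10 (9 higher, 1 lower). It was 9 (8 higher) with the 75th percentile subtracted and 11 (10 higher) with wolf arrays only. With the OAS2 probes kept in the adjustment it was 13 (10 higher, 3 lower), and MNDA and PLD3 were among those that joined. The brightest OAS2 probe chose the sides, so its p-value follows from the rule and the added calls are no separate evidence. The count was 1 (1 higher, 0 lower) without a slide term, and 3 (3 higher, 0 lower) with quantile normalisation and also at equal array SD. It was 5 (4 higher) with all probes of a gene averaged. With probes under the HPX level left out it was 2 (2 higher, 0 lower), GABARAP and MARCO, of which MARCO passed that filter through the OAS2-high wolves. It was 0 above 1.26 in limma, where 188 of 550 probes were higher at an unadjusted p under 0.05 and 0 lower. The filter at 1.26 used the mean over all wolves. Of the 426 named genes above it, 44 passed without an OAS2-low mean above it, and these had to be higher. Of these 44, 39 were higher at an unadjusted limma p under 0.05. Without an intensity trend the count was 0, with 1156 higher and 1603 lower unadjusted. The count was 808 (726 higher, 82 lower) in 1 fit of all wolf arrays with the animal as a random block. There the correlation of an animal's arrays over all probes was estimated as 0.066, so technical arrays counted almost as independent values. The count was 508 (445 higher, 63 lower) with OAS2 as a number. Leaving out 1 wolf gave 0 to 350 calls (0 to 297 higher, 0 to 53 lower).

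Interferon-induced genes called numbered 0 in all these settings except the random block, with 1, SP100 (difference 0.85, limma adjusted p = 0.00106). Directions turned, all without a call, for OAS1 (-0.16 quantile, -0.028 at equal SD), OAS3 (0.0056 and 0.0052), OASL (-0.012 and -0.0033), IRF9 (-0.017 and -0.013), ISG15 (-0.0018 at equal SD, -0.019 with OAS2 as a number) and FOS (0.017 with OAS2 as a number). The cause was not tested. With 1 wolf left out, as deposited or at equal SD, the differences ran from -0.15 to 0.47 for OAS1, -0.077 to 0.052 for OAS3, -0.050 to 0.14 for OASL, -0.063 to 0.14 for IRF9, -0.022 to 0.051 for ISG15, -0.018 to 0.13 for IFITM3, -0.091 to 0.0090 for IFI44, -0.73 to 0.15 for BCL2L1, -1.31 to 0.0093 for BNIP3L, -0.69 to 0.11 for DCUN1D1, -0.91 to 0.12 for FOS, -1.21 to 0.0082 for H3-3A, -0.96 to 0.13 for MEMO1, -1.23 to 0.027 for MRPS31, -0.77 to 0.079 for PITHD1, -0.12 to 0.0033 for CIITA, -0.17 to 0.018 for NFKB1 and -1.29 to 0.19 for HBD. The 9 genes called kept their sign in every setting run, but they were picked from the same arrays, so this is no separate evidence. Keeping OAS2 in the adjustment, the filter at the HPX level and leaving out wolves at equal SD were chosen after seeing the data. No paired analysis was possible because each wolf stands on 1 side and replicate numbers only name arrays. Signal limits the rest: 72 of 98 interferon-induced genes had a mean below 0, where a difference in transcript could go unseen.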
